A study of Mus musculus with 6 samples.

Results

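Immunoglobulin and T cell receptor segments were 33 of the 923 rows of the deposited ileum expression table, chosen as the rows whose gene biotype starts with IG_ or TR_. They comprised 4 immunoglobulin constant segments, 24 immunoglobulin variable segments, 1 immunoglobulin variable pseudogene, 2 T cell receptor constant segments and 2 T cell receptor variable segments. By locus, 15 belonged to the heavy chain, 13 to kappa, 1 to lambda and 4 to the T cell receptor loci. The table held only rows with an unadjusted p under 0.05 in the authors' test of the same comparison. Every difference between the groups given below had therefore already served to choose the rows, and directions, counts and fold changes describe them without testing them anew. Segments outside the table are called not listed, and their levels were not analysed here.

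The study compared ileum RNA of 3 Hif1α LSL/LSL;VilERcre mice with that of 3 Hif1α LSL/LSL mice to ask how HIF-1α in the intestinal epithelium acts on the gut barrier. All mice carried the LSL-HIF1dPA allele on a C57BL/6 background and all received tamoxifen. In Hif1α LSL/LSL;VilERcre mice, here called overexpression, a villin-driven Cre that tamoxifen activates switches the allele on in epithelial cells, and Hif1α LSL/LSL mice without Cre, here called flox, were the controls. By the sample labels, replicates 1 and 2 of each group were male and replicate 3 was female, whereas the paper's text speaks of males. The supplement gives an age and diets for feeding experiments on mice of this cross, but no source used here ties either to the sequenced mice.

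Antibodies and T cell receptors are assembled in each lymphocyte by joining a variable segment to joining and constant segments of the same locus, so that all daughters of a B or T cell carry the same variable segments. The heavy chain constant segment sets the isotype, which is IgM with IgD in naive B cells and IgG, IgA or IgE after class switching, and it pairs with a kappa or a lambda light chain. Most antibody RNA of the gut comes from IgA plasma cells of the lamina propria, and T cell receptors of the gamma and delta loci are common among lymphocytes within the epithelium.

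The FPKM columns imply library totals between 18918341 and 24905343, and the 33 segments together took 2511 to 3659 counts per library. Levels are given as normalized counts, which are counts divided by the size factor of the library. The size factors (0.858 to 1.14) were inferred from the deposited counts and normalized counts. Hif1a itself was at 741 to 1185 normalized counts in flox libraries and 535 to 741 in overexpression libraries. How transgene reads were counted is not stated, so this gene could not serve as a check of the genotype labels. Slc16a3, a lactate exporter and HIF target, was at 276 to 420 normalized counts in flox and 3808 to 5230 in overexpression libraries. Fabp6, a defining gene of ileal enterocytes, was high in all 6 libraries, and of the markers of other cells fixed for plasma, B, follicular, T, smooth muscle and myeloid cells, Derl3, Pax5, Ms4a1, Cd22 and Cr2 were listed. Of a wider list of 12 muscle and stroma genes 1 was listed, Acta1, the skeletal muscle actin, which was at 137 to 281 normalized counts in flox and 587 to 950 in overexpression libraries and rose by a log2 fold change of 1.87 (edgeR adjusted p = 0.0438, DESeq2 adjusted p = 3.3e-07). Its part in the values of the segments was not tested.

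The ends of variable segments are shown first because they are the stretch that a joined receptor carries into its antigen-binding loop. They also set related segments of the same and of opposite directions side by side. The sequences are the last 90 bases of the germline transcripts in GENCODE M21 on GRCm38, 5′ to 3′ along the gene, and they are reference sequence, not read from these mice. Capitals run from the conserved cysteine codon, found as the cysteine codon that follows a tyrosine codon and any other codon within the last 45 bases, to the end of the segment. This pattern was found in 26 of the 27 variable segments listed, all but the pseudogene Gm42667, and in 98.1% of the 362 variable transcripts in the annotation. Among the 12 heavy chain variable segments, 9 held the letters TGTGCAAGA there. The first set pairs segments of 1 family on the heavy locus of chromosome 12 (all on the minus strand). Ighv5-4 (chr12:113597446-113597535) was higher and Ighv5-16 (chr12:113838526-113838615) lower in overexpression libraries, Ighv1-81 (chr12:115920279-115920368) higher and Ighv1-19 (chr12:114708648-114708737) lower, while Ighv9-1 (chr12:114093928-114094017) and Ighv9-4 (chr12:114299961-114300050) were both lower. Ighv4-1 (chr12:113948282-113948371) and Ighv11-2 (chr12:114048241-114048330) were the listed segments of their families.
Ighv5-4: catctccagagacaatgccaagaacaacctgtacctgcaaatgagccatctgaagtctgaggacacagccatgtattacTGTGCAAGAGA
Ighv5-16: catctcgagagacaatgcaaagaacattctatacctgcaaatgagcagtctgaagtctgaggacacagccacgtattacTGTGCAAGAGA
Ighv1-81: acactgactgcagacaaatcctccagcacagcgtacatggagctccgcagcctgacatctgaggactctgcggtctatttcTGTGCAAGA
Ighv1-19: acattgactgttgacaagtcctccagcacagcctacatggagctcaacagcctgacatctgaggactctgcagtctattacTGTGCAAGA
Ighv9-1: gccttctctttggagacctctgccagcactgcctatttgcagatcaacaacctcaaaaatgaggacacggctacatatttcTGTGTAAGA
Ighv9-4: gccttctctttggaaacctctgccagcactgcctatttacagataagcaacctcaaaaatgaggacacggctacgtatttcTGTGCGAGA
Ighv4-1: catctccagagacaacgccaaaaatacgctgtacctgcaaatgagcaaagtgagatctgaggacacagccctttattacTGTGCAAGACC
Ighv11-2: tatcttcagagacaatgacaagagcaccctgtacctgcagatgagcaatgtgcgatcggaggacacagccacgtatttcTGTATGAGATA

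The kappa and gamma segments below are shown for the same reason. On chromosome 6, Igkv9-120 (chr6:68050367-68050456, plus strand) was higher and Igkv9-123 (chr6:67954228-67954317, minus strand) lower, Igkv5-43 (chr6:69823355-69823444, minus strand) and Igkv5-37 (chr6:69963312-69963401, minus strand) were higher and Igkv5-39 (chr6:69900424-69900513, minus strand) lower, and Igkv4-53 (chr6:69648824-69648913, minus strand) and Igkv4-57-1 (chr6:69544359-69544448, minus strand) were both higher. Igkv16-104 (chr6:68425983-68426072, plus strand) was lower. Trgv2 (chr13:19336573-19336662, minus strand) is the listed variable segment of the gamma locus. Counted from the first base of the cysteine codon, these kappa ends carry 26 to 28 bases, against 9 to 11 in the heavy chain segments shown above. Ighv1-62-2, a listed heavy chain segment that is not shown, carries 17.
Igkv9-120: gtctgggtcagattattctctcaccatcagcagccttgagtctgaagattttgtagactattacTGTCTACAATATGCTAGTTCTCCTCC
Igkv9-123: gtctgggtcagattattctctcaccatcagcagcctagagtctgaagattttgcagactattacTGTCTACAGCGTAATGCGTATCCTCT
Igkv5-37: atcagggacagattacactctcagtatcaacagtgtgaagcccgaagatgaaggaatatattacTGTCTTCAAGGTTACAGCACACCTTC
Igkv5-39: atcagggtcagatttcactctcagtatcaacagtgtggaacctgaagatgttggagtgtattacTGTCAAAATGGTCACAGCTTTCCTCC
Igkv5-43: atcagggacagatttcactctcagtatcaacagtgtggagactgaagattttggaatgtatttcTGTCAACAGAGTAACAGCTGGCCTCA
Igkv4-53: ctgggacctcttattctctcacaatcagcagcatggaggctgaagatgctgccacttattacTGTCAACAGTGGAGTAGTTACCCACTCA
Igkv4-57-1: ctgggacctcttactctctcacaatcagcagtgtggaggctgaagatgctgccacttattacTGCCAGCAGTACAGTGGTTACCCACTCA
Igkv16-104: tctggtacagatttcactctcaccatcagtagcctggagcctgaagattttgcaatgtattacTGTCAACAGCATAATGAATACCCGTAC
Trgv2: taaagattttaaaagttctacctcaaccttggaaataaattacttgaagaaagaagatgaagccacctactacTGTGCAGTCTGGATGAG

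In overexpression ileum, all 3 listed heavy chain constant segments were lower, the lambda constant segment was higher, and variable segments of the heavy and kappa loci went both ways. Of the 33 segments, 14 were higher and 19 lower, so 57.6% were lower against 46.4% of all 923 rows. In bulk ileum, fewer lymphocytes and less of a transcript in each cannot be told apart. The 3 libraries of a group lay wholly above those of the other for 18 segments, against 72.0% of all rows. Of these, 6 were higher, against 38.6% of all rows, and 12 lower, against 33.5%, and the groups overlapped for 15. Gm42667 and Trbv14 were among the 138 lowest rows, with a mean of at most 4.16 normalized counts, which the table gives an adjusted p of exactly 1. The other 31 segments were fitted together with 754 further rows.

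EdgeR's quasi-likelihood test, adjusted by Benjamini-Hochberg over 19204 genes, called 0 of the 31 segments, with adjusted p from 0.452 to 1, against 2.80% of the 785 rows tested. The unadjusted p was under 0.05 for 26 of the 31, against 83.2% of the rows tested, in a table chosen for small p. DESeq2 called 7 of the 31, against 9.30% of the rows tested, of which 2 were higher (background 7.64%) and 5 lower (background 1.66%). Limma on log2(FPKM + 0.1) called 0, against 1.91%, and its unadjusted p was under 0.05 for 24, against 68.7% of the rows tested. The median log2 fold change was -1.37 over the 31 segments and 0.34 over all 785 rows. Among the 13 higher segments it was 1.39 and among the 18 lower segments -2.14.

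**Figure D1:**
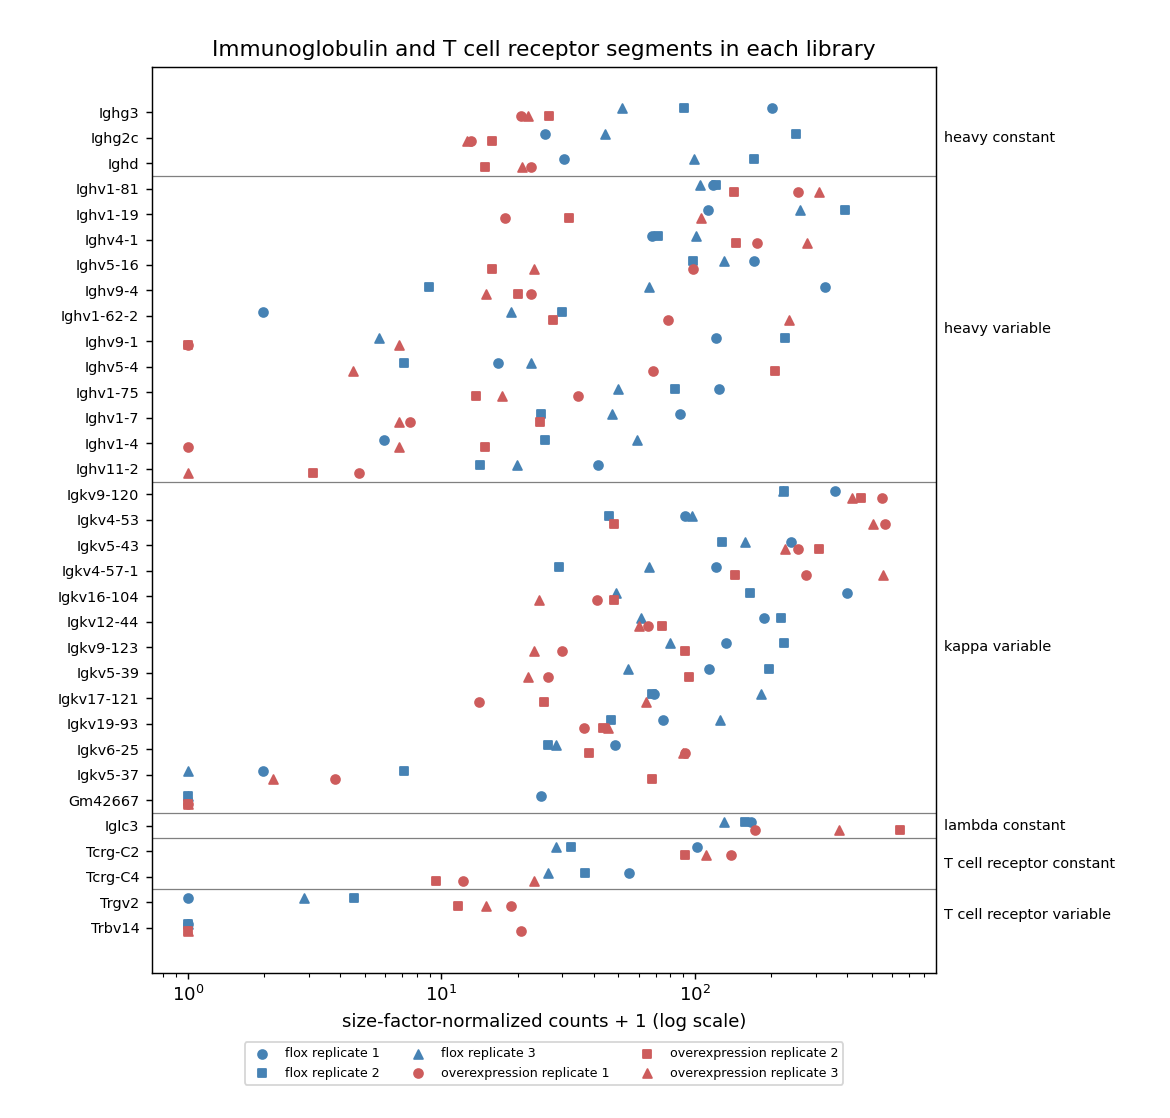
Normalized counts plus 1 (horizontal log axis) of the 33 segments in each of the 6 libraries, with flox in blue and overexpression in red, a marker shape for each replicate number, and segments grouped by locus and kind. The 3 heavy chain constant segments have all overexpression points left of all flox points, and many variable segments have a point far from the other 5.

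**Figure D2:**
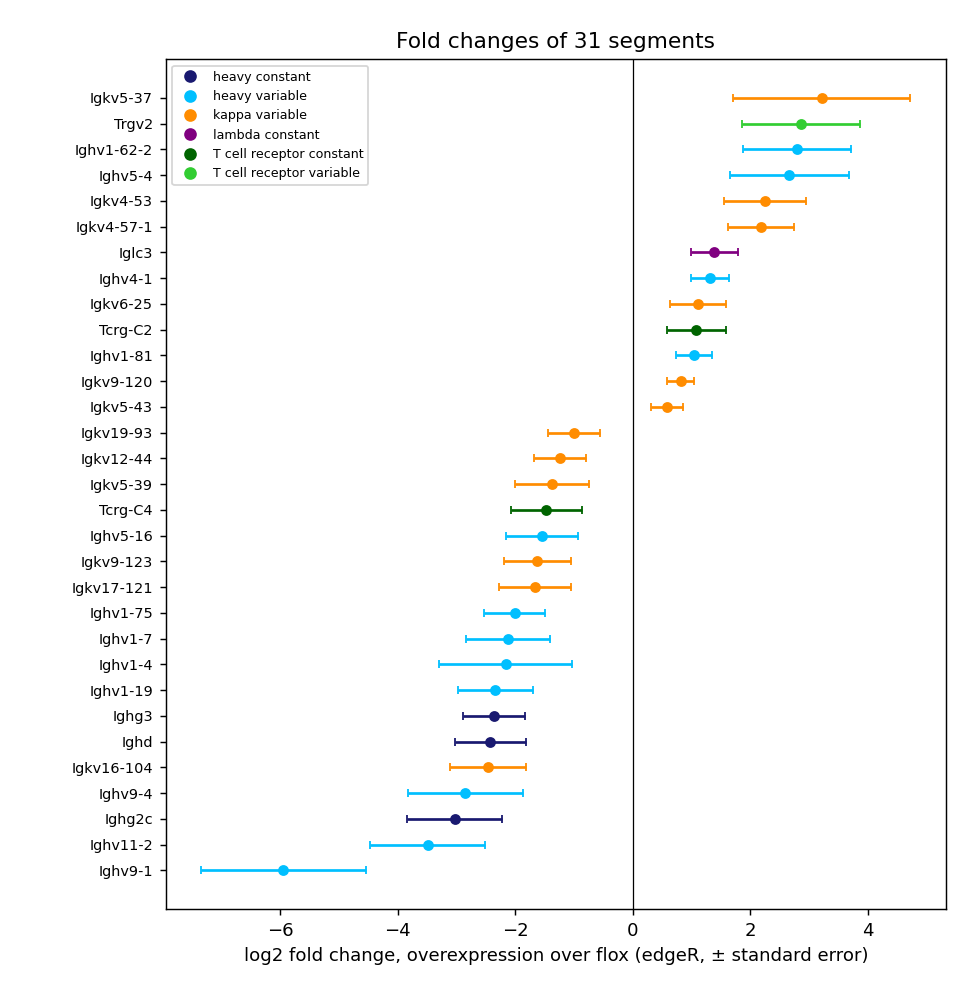
Log2 fold change, overexpression over flox, of the 31 tested segments from edgeR, with bars of 1 standard error and colours by locus and kind. The 3 heavy chain constant segments lie between -3.03 and -2.36 and the lambda constant segment at 1.39, while heavy and kappa variable segments lie on both sides of 0.

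The heavy chain constant segments Ighg3, Ighg2c and Ighd were lower in every overexpression library than in any flox library. Ighg3 (ENSMUSG00000076615, chr12:113356224-113361232), the constant segment of IgG3, an isotype made against carbohydrate antigens in mice, was at 201, 89.6 and 50.8 normalized counts in flox replicates 1, 2 and 3 and at 19.6, 25.5 and 20.98 in overexpression replicates 1, 2 and 3. Ighg2c (ENSMUSG00000076612, chr12:113285325-113288932), the IgG2 subclass that C57BL/6 mice make in place of IgG2a, was at 24.7, 250.4 and 43.3 in flox and 12.2, 14.9 and 11.7 in overexpression libraries. Ighd (ENSMUSG00000104213, chr12:113406604-113416324), the delta segment of naive B cells, was at 29.6, 170.4 and 97.9 in flox and 21.5, 13.8 and 19.8 in overexpression libraries. The overexpression libraries lay close together for each of the 3 segments, whereas the flox libraries differed widely and flox replicate 2 alone held 70.1% of the Ighg2c total.

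Summed over the 3 segments, flox libraries had 255, 510.4 and 192 and overexpression libraries 53.3, 54.3 and 52.5 normalized counts, a mean of 319 ± 169 (SD, n = 3) against 53.3 ± 0.914 (SD, n = 3). The sum was lower in the female pair (192 against 52.5) as well as in the males, and the ratio of group means on the log2 scale was -2.58 with all libraries, -2.83 with males only and -2.07 without flox replicate 2. The log2 fold change was -2.36 (SE 0.53) for Ighg3, with edgeR adjusted p = 0.452 and DESeq2 adjusted p = 0.00916. It was -3.03 (SE 0.81) for Ighg2c, with edgeR adjusted p = 0.803 and DESeq2 adjusted p = 0.0297, and -2.43 (SE 0.60) for Ighd, with edgeR adjusted p = 0.631 and DESeq2 adjusted p = 0.0336. The DESeq2 call was kept in 1 of 6 leave-one-out fits for Ighg3 (without flox replicate 3), in 2 of 6 for Ighg2c (without flox replicate 1 or 3) and in 1 of 6 for Ighd (without flox replicate 1). Without flox replicate 2, the edgeR log2 fold change of Ighg2c was -1.39 and that of Ighd -1.79, and without flox replicate 1 that of Ighg3 was -1.67.

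The isotype that led among these 3 segments differed between flox mice. By FPKM, which divides by gene length, Ighg3 made up 70.1% of their sum in flox replicate 1, Ighg2c 60.1% in flox replicate 2 and Ighd 49.3% in flox replicate 3. In overexpression libraries no segment took more than 40.0% or less than 25.4%. The annotation holds 8 heavy chain constant genes, of which 3 were listed. Igha, Ighm and Ighg1, the constant segments of IgA, IgM and IgG1, were not among them, so these shares are shares of the 3 listed segments and not of all isotypes.

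Among 12 heavy chain variable segments, 4 were higher and 8 lower, and the groups lay apart for 7, against 72.0% of all rows. The 4 higher segments summed to 223 ± 20.9 (SD, n = 3) normalized counts in flox and 638 ± 161 (SD, n = 3) in overexpression libraries. The 8 lower ones summed to 827 ± 179 (SD, n = 3) and 157 ± 34.8 (SD, n = 3). Segments were split by these same group means, so the direction of each sum was set by the split. Over all 12 the sums overlapped, with 1182, 1094 and 873 in flox and 753, 636 and 995 in overexpression libraries.

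Ighv1-81 (ENSMUSG00000094689) was at 117.3, 120.4 and 104 normalized counts in flox and 253, 142 and 308 in overexpression libraries, with a log2 fold change of 1.04 (SE 0.30). Ighv4-1 (ENSMUSG00000076655) was at 67.1, 70.3 and 99.7 in flox and 175, 145 and 275 in overexpression libraries, with a log2 fold change of 1.32 (SE 0.33), an edgeR adjusted p of 0.588 and a DESeq2 adjusted p of 0.0447. In both segments all overexpression libraries exceeded all flox libraries, and no library held a dominant share. The DESeq2 call of Ighv4-1 was kept in 0 of 6 leave-one-out fits, with DESeq2 adjusted p from 0.0525 to 0.675.

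Ighv1-19 (ENSMUSG00000096410) was at 111, 392 and 260 normalized counts in flox and 16.8, 30.9 and 104.9 in overexpression libraries, with a log2 fold change of -2.34 (SE 0.64), an edgeR adjusted p of 0.803 and a DESeq2 adjusted p of 0.0348. Flox replicate 1 and overexpression replicate 3 nearly met, and the DESeq2 call was kept in 2 of 6 fits, those without flox replicate 1 or overexpression replicate 3. Without overexpression replicate 3 its edgeR log2 fold change was -3.42. Ighv5-16 (ENSMUSG00000094194) was at 169.6, 97.5 and 129 in flox and 97.3, 14.9 and 22.1 in overexpression libraries, with a log2 fold change of -1.54 (SE 0.61). Overexpression replicate 1 was level with flox replicate 2 in this segment, and without overexpression replicate 1 the log2 fold change was -2.83.

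In 6 further heavy chain variable segments, 1 library held at least 50% of the total over the 6 libraries. Ighv9-4 (ENSMUSG00000094322) was at 324, 7.91 and 64.9 normalized counts in flox and 21.5, 19.2 and 13.99 in overexpression libraries, and its log2 fold change of -2.84 (SE 0.98) was -0.99 without flox replicate 1. Ighv9-1 (ENSMUSG00000096805) was at 120.3, 227 and 4.70 in flox and 0, 0 and 5.83 in overexpression libraries. Its signal thus came from the flox males alone, and the female pair did not differ in that direction. Ighv1-62-2 (ENSMUSG00000096078) was at 0.986, 29.0 and 17.9 in flox and 77.6, 26.6 and 234 in overexpression libraries, and its log2 fold change of 2.80 (SE 0.92) was 1.69 without overexpression replicate 3 and 3.55 without flox replicate 2. Ighv5-4 (ENSMUSG00000095612) was at 15.8, 6.15 and 21.6 in flox and 67.3, 206 and 3.50 in overexpression libraries, and its log2 fold change of 2.67 (SE 1.01) was 1.30 without overexpression replicate 2. Overexpression replicate 2 lay within the flox range for Ighv1-62-2, and overexpression replicate 3 lay below all flox libraries for Ighv5-4. Ighv1-4 (ENSMUSG00000095442) was at 4.93, 24.6 and 58.3 in flox and 0, 13.8 and 5.83 in overexpression libraries. Ighv11-2 (ENSMUSG00000096108), a segment known from B-1a cells that bind phosphatidylcholine, was at 40.4, 13.2 and 18.8 in flox and 3.74, 2.13 and 0 in overexpression libraries, with a log2 fold change of -3.49 (SE 0.97) and groups apart. Its log2 fold change was -2.90 without flox replicate 1 and -4.30 without overexpression replicate 1. The remaining lower segments, Ighv1-75 and Ighv1-7, had means of 84.9 ± 37.2 and 52.2 ± 32.0 (SD, n = 3) in flox and 20.9 ± 11.2 and 11.9 ± 9.95 (SD, n = 3) in overexpression libraries.

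The segment that led the listed heavy chain variable group also differed between mice. By FPKM, Ighv9-4 led in flox replicate 1 with 29.1% of the group, and Ighv1-19 led in flox replicates 2 and 3 with 33.6% and 28.2%. Ighv1-81 led in overexpression replicates 1 and 3 with 36.4% and 33.5%, and Ighv5-4 in overexpression replicate 2 with 30.0%. The order along the locus did not separate the directions, since higher segments stood at both ends (Ighv5-4 and Ighv1-81) and between lower ones (Ighv4-1 and Ighv1-62-2).

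Among 13 kappa variable segments, 6 were higher and 7 lower, and the groups lay apart for 5, against 72.0% of all rows. The higher ones summed to 626 ± 207 (SD, n = 3) normalized counts in flox and 1522 ± 406 (SD, n = 3) in overexpression libraries. The lower ones summed to 818 ± 238 (SD, n = 3) and 271 ± 88.1 (SD, n = 3). Here too the split by direction set the direction of each sum. Over all 13 the groups overlapped, at 1850, 1369 and 1114 in flox and 1933, 1426 and 2019 in overexpression libraries. Igkc, the kappa constant segment that every kappa chain carries, was not listed.

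Igkv9-120 (ENSMUSG00000094872) had the highest mean FPKM of the 33 segments in each group, 34.4 ± 9.71 in flox and 60.4 ± 8.27 (SD, n = 3) in overexpression libraries. It was at 358, 224 and 221 normalized counts in flox and 545, 453 and 417 in overexpression libraries, with a log2 fold change of 0.82 (SE 0.23) and an edgeR adjusted p of 0.826. Igkv4-57-1 (ENSMUSG00000076555) was at 120.3, 28.1 and 64.9 in flox and 273, 143 and 550.2 in overexpression libraries, with a log2 fold change of 2.18 (SE 0.56), an edgeR adjusted p of 0.716 and a DESeq2 adjusted p of 0.0177. All overexpression libraries exceeded all flox libraries in both segments, and the DESeq2 call of Igkv4-57-1 was kept in 2 of 6 fits, those without flox replicate 1 or overexpression replicate 2. The edgeR log2 fold change of Igkv4-57-1 was 2.79 without flox replicate 1 and 1.55 without overexpression replicate 3.

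Igkv4-53 (ENSMUSG00000095753) was at 90.7, 44.8 and 96.9 normalized counts in flox and 559, 46.8 and 503.6 in overexpression libraries, with a log2 fold change of 2.26 (SE 0.70) and an edgeR adjusted p of 1. Overexpression replicate 2 stood with the flox mice, and without it the log2 fold change was 2.78 with an edgeR adjusted p of 0.0263, the sole edgeR call among the 31 segments with a library left out. Igkv5-43 (ENSMUSG00000094433) was at 240, 127 and 157 in flox and 254, 308 and 225 in overexpression libraries, with a log2 fold change of 0.59 (SE 0.27) and overlapping groups.

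Igkv16-104 (ENSMUSG00000076522) was at 396, 164 and 48.0 normalized counts in flox and 40.2, 46.8 and 23.3 in overexpression libraries, with a log2 fold change of -2.45 (SE 0.65), an edgeR adjusted p of 0.747 and a DESeq2 adjusted p of 0.0213. Flox replicate 1 held 55.1% of its total, flox replicate 3 was level with overexpression replicate 2, and the DESeq2 call was kept in 1 of 6 fits (without flox replicate 3). Without flox replicate 1 the edgeR log2 fold change was -1.52. Igkv5-37 (ENSMUSG00000076571) was at 0.986, 6.15 and 0 in flox and 2.81, 67.1 and 1.17 in overexpression libraries, so overexpression replicate 2 held 85.8% of it. Its log2 fold change of 3.22 (SE 1.51) turned to -0.24 without that library.

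Of the other kappa segments, Igkv6-25 had means of 33.4 ± 12.1 in flox and 72.2 ± 30.3 (SD, n = 3) in overexpression libraries. Igkv12-44, Igkv9-123, Igkv5-39, Igkv17-121 and Igkv19-93 were lower, with log2 fold changes from -1.66 to -0.999, and the groups overlapped for Igkv12-44, Igkv9-123 and Igkv5-39. The pseudogene Gm42667, a very low row named after its values were seen, had 24 counts in flox replicate 1 and 0 in the other 5 libraries. By FPKM, Igkv9-120 or Igkv16-104 led the listed kappa group in flox libraries with 17.2% to 20.9%, whereas Igkv9-120 led in overexpression replicates 1 and 2 with 29.3% and 33.0% and Igkv4-57-1 in overexpression replicate 3 with 26.9%.

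Iglc3 (ENSMUSG00000105547, chr16:19065230-19065681), a lambda constant segment, was the listed member of the lambda locus and was higher in overexpression ileum. It was at 166, 156 and 129 normalized counts in flox and 171, 646 and 369.5 in overexpression libraries, with a log2 fold change of 1.39 (SE 0.40), an edgeR adjusted p of 0.899 and a DESeq2 adjusted p of 0.131. The groups did not overlap, but overexpression replicate 1 was only just above flox replicate 1, and the log2 fold change was 0.84 without overexpression replicate 2 and 1.76 without overexpression replicate 1. DESeq2, which did not call Iglc3 with all libraries, called it without overexpression replicate 1 (DESeq2 adjusted p = 6.6e-05). On the FPKM scale its mean was 15.1 ± 1.83 in flox and 39.5 ± 23.8 (SD, n = 3) in overexpression libraries. Since neither Igkc nor the other 3 lambda constant genes were listed, no ratio of lambda to kappa use was computed.

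The first 90 bases of Iglc3 and the matching 90 bases of Iglc2, its close copy, are shown. Reads of these genes can be told apart only at such differences. Capitals mark the 5 bases that differ. The stretch of Iglc3 lies at chr16:19065592-19065681 and that of Iglc2 at chr16:19198763-19198852 (both minus strand, GENCODE M21 on GRCm38). The transcripts were 94.9% identical over the 450 bases that aligned, which leave out an earlier exon of Iglc2.
Iglc3: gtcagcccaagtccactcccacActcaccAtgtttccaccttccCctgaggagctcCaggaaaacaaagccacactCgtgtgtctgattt
Iglc2: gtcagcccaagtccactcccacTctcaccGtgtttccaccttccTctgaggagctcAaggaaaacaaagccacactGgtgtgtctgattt
No stretch of 150 bases, the read length, was shared between Iglc3 and another annotated gene, nor for 29 of the 33 segments in all. Ighv1-62-2 shared 88.2% of its 150-base windows with Ighv1-71, Igkv5-43 19.1% with Igkv5-45, Ighv11-2 4.17% with Ighv11-1 and Igkv6-25 1.30% with Igkv6-17, so the counts of Ighv1-62-2 in particular could be split with Ighv1-71. Somatic mutation in rearranged genes can add differences that the reference does not hold.

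The T cell receptor rows were few, and those of the gamma locus on chromosome 13 went in opposite directions. Tcrg-C2 (ENSMUSG00000076752, chr13:19304649-19307551), a gamma constant segment, was at 101, 31.6 and 27.3 normalized counts in flox and 137, 90.5 and 109.6 in overexpression libraries, with a log2 fold change of 1.08 (SE 0.50). Tcrg-C4 (ENSMUSG00000076757, chr13:19344558-19352756), another gamma constant segment, was at 54.2, 36.0 and 25.4 in flox and 11.2, 8.51 and 22.1 in overexpression libraries, with a log2 fold change of -1.47 (SE 0.60). Flox replicate 1 lay among the overexpression libraries for Tcrg-C2, whose log2 fold change was 1.93 without it, while the groups were apart for Tcrg-C4. Neither passed edgeR, DESeq2 or limma with all libraries.

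Trgv2 (ENSMUSG00000076754, chr13:19336573-19337167), a gamma variable segment, was at 0, 3.51 and 1.88 normalized counts in flox and 17.8, 10.6 and 13.99 in overexpression libraries, with a log2 fold change of 2.86 (SE 1.00), an edgeR adjusted p of 1 and groups apart. The log2 fold change was 3.72 without flox replicate 2. These levels rest on 19, 10 and 12 counts in overexpression and 0, 4 and 2 in flox libraries. Trgv2 lies on the same strand as Tcrg-C2, 29021 bases away, and on the opposite strand to the nearer Tcrg-C4, 7390 bases away. Trbv14 (ENSMUSG00000076471, chr6:41135145-41135616), a beta variable segment, had 21 counts in overexpression replicate 1 and 0 in the other 5 libraries. No segment of the alpha and delta loci was listed, and neither were the beta constant segments.

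Single libraries carried much of the signal of these segments. In 11 of the 33, 1 library held at least 50% of the 6-library total of normalized counts, against 169 of the 890 other rows. An even spread gives 16.7%. Rows were not matched for count level in these comparisons. Of the 31 tested segments 9 did so, against 8.92% of all tested rows and 61 of the 754 tested rows that were not segments. The highest library held a median of 41.7% over the 31 segments and 24.7% over those 754 rows. The highest library was flox replicate 1 for 9 segments, flox replicate 2 for 7 and flox replicate 3 for 3. It was overexpression replicate 1 for 6 and overexpression replicates 2 and 3 for 4 each. By the 50% limit, flox replicates 1, 2 and 3 held 4, 2 and 1 segments. Overexpression replicates 1, 2 and 3 held 1, 2 and 1. The segment of overexpression replicate 1 was Trbv14, a very low row outside the 31 tested. The share was highest in Igkv5-37 (85.8%), Ighv9-4 (71.8%), Ighv5-4 (64.3%), Ighv9-1 (63.4%) and Ighv1-62-2 (60.6%) among variable segments averaging 10 or more normalized counts. Constant segments were not free of it, at 70.1% for Ighg2c, 49.3% for Ighg3 and 48.3% for Ighd, all in flox libraries.

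**Figure D3:**
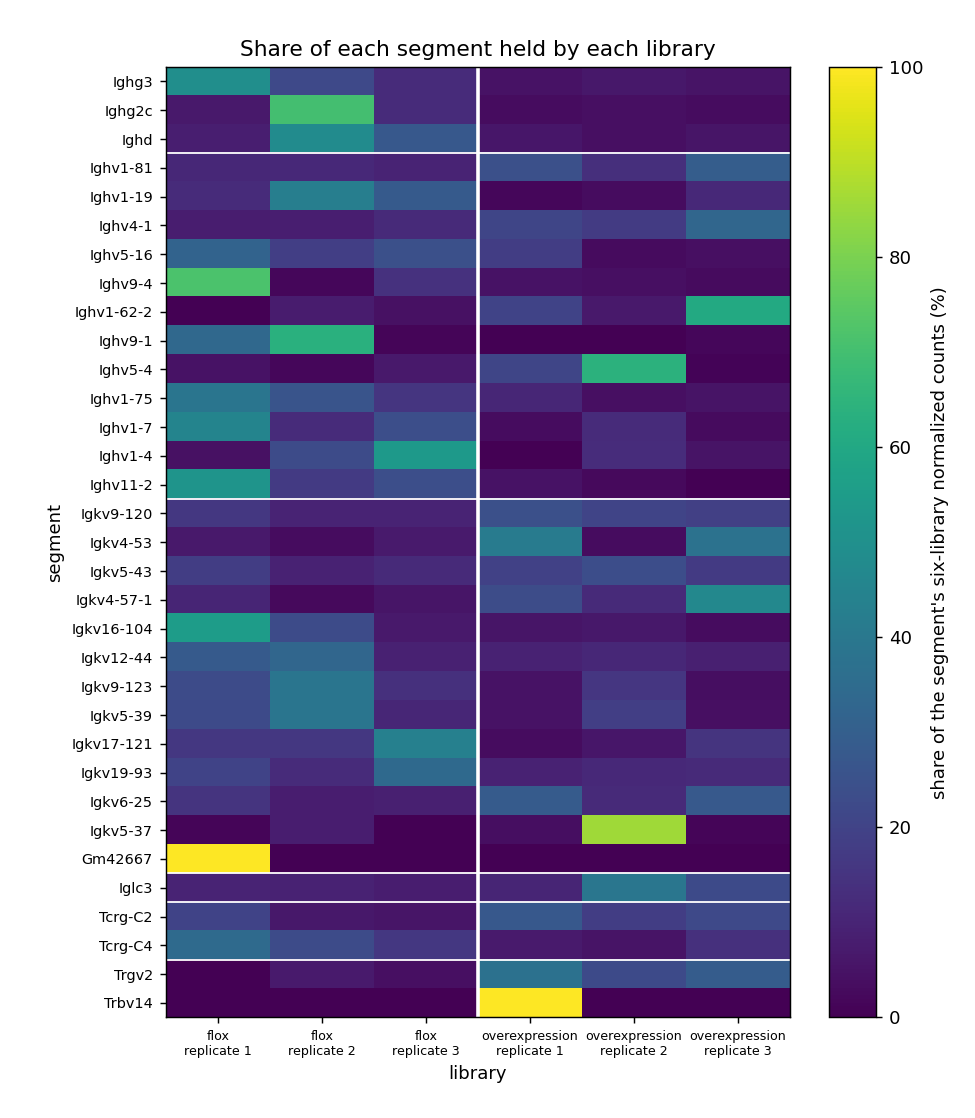
Share of each segment's 6-library total of normalized counts (colour scale, percent) held by each library, with segments in rows grouped by locus and kind and libraries in columns, flox left of the white line. Bright cells mark segments held mostly by 1 mouse, such as Igkv5-37 in overexpression replicate 2 (85.8%) and Ighv9-4 in flox replicate 1 (71.8%).

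Variable segments of the same family went the same way in some pairs and opposite ways in others. The 24 heavy and kappa variable segments other than Gm42667 fell into 13 families by name, of which 7 had 1 listed segment and 6 had more. In 4 of these 6 families members of both directions were listed (Ighv1, Ighv5, Igkv5 and Igkv9), and in Ighv9 and Igkv4 the members shared a direction. Of the 22 pairs within families, 10 shared a direction and 12 did not, with identities between 82.4% and 96.9%. Pairs of different families were not counted, so these counts are not read as a trait of related segments. The closest pair, Ighv1-4 and Ighv1-7 at 96.9%, was lower in both members, and Ighv1-75 and Ighv1-81 at 90.3% went opposite ways.

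The reported B cell genes in the table had lower means in overexpression libraries, as the heavy chain constant segments had. Of the 36 B cell genes reported here, 8 were listed and all 8 were lower, against 46.4% of all rows (Ms4a1, Cd22, Pax5, Cr2, Cd37, H2-Ob, Cxcr5 and Fcmr), 5 of them with groups apart, where 33.5% of all rows were lower with groups apart and 72.0% had groups apart in either direction. EdgeR called 0 of the 8 and DESeq2 1, against 2.80% and 9.30% of the rows tested. Cr2, the complement receptor of follicular B cells and follicular dendritic cells, was at 26.6, 19.3 and 52.7 normalized counts in flox and 0, 4.26 and 3.50 in overexpression libraries (DESeq2 adjusted p = 0.0481). Pax5, the transcription factor of B cell identity, was at 9.86, 145 and 53.6 in flox and 8.42, 12.8 and 3.50 in overexpression libraries. Flox replicate 1, which was high in Ighg3 and Ighv9-4, was level with the overexpression mice in Pax5.

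The 8 genes summed to 374 to 865 normalized counts in flox and 275 to 353 in overexpression libraries, and Cr2, Cxcr5 and Fcmr were at 0 in overexpression replicate 1. The markers fixed for B cells that were listed (Pax5, Ms4a1 and Cd22, 3 of the 5 reported here) summed to 104 to 409 and 67.6 to 122, and the groups overlapped. Their part in the lower heavy chain constant segments was not tested.

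Genes of antibody secretion were few in the table and went both ways. Of a list of 24 genes of plasma cells and antibody secretion, 3 were listed, 2 higher and 1 lower. The groups overlapped for the 2 higher ones, and edgeR and DESeq2 called 0 of the 3. Derl3, an endoplasmic reticulum protein of secretory cells, was at 163, 177 and 149.6 normalized counts in flox and 397, 164 and 253 in overexpression libraries, and Pigr, the epithelial receptor that carries IgA into the lumen, had means of 35364 ± 9348 in flox and 47464 ± 1620 (SD, n = 3) in overexpression libraries. Ell2, an elongation factor used in the switch to secreted heavy chain, had means of 1136 ± 139 and 904 ± 43.9 (SD, n = 3). None of 18 genes of segment joining and class switching was listed, and of 40 genes of T cells and intraepithelial lymphocytes Lck and Klrb1 were listed. Lck, the kinase of T cell receptor signaling, was at 98.6, 82.6 and 59.3 in flox and 158, 103 and 131 in overexpression libraries. Klrb1, a lectin receptor of natural killer and some T cells, was at 16.8, 33.4 and 39.5 in flox and 163, 70.2 and 103 in overexpression libraries, with DESeq2 adjusted p = 0.0320 and edgeR adjusted p = 0.548.

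**Figure D4:**
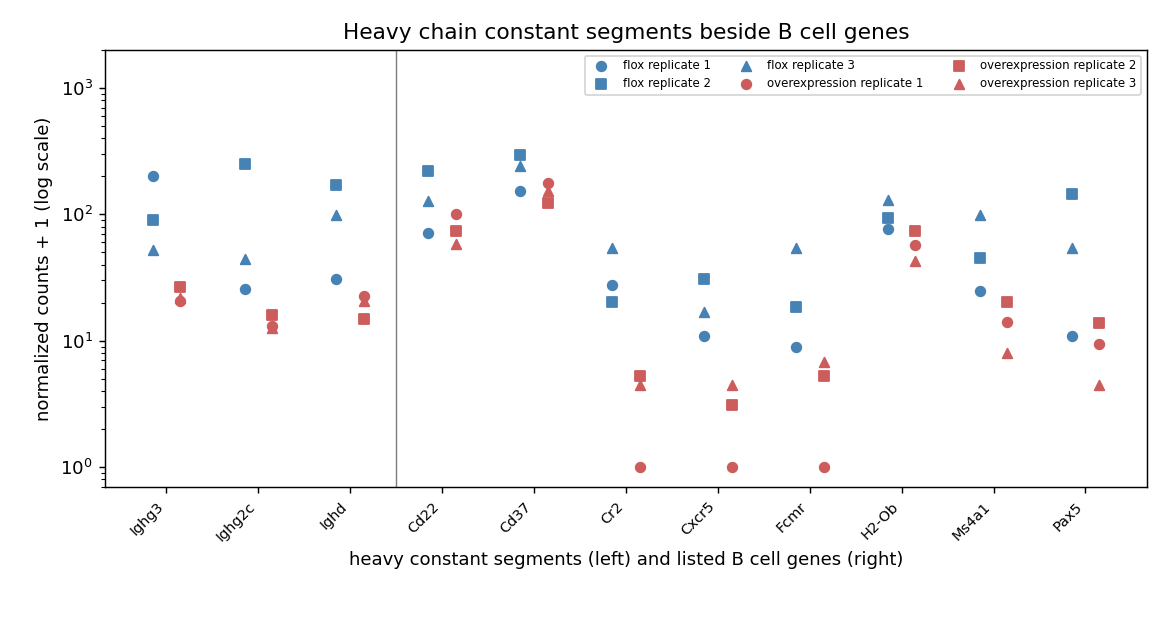
Normalized counts plus 1 (vertical log axis) of the 3 heavy chain constant segments and 8 listed B cell genes in each library, flox in blue and overexpression in red with a marker shape for each replicate number. Overexpression points of Ighg3, Ighg2c and Ighd lie below all flox points, whereas flox replicate 1 is level with overexpression libraries in Cd22, Cd37 and Pax5.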

How the data were processed

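Poly(A) RNA of ileum from 6 mice was sequenced as read pairs of 150 bases. The authors aligned reads to GRCm38 with HISAT2 (version 2.0.5), and the deposited counts are whole fragments per gene from featureCounts. The deposited normalized signal, here normalized counts, is the authors' count over a library's size factor, and the deposited FPKM also accounts for gene length. The sources used here do not say whether strand was used, so antisense or overlapping genes may share counts. The authors' own DESeq2 log2 fold changes and p-values, which the table also holds, were not used, except to learn that 19204 genes were tested and that 785 of the 923 rows have an adjusted p below 1.

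Counts of those 785 rows, scaled by the inferred size factors, were fitted with edgeR (version 4.0.16, quasi-likelihood test, R 4.3.3). The fit set 3 libraries against 3 with no covariate, with Benjamini-Hochberg adjustment over 19204 genes and a threshold of 0.05. EdgeR, DESeq2 and limma were also run on simulated counts with means and dispersions taken from these data, and the outcome is not given here. Alternatives were DESeq2 (version 1.42.0), limma (version 3.58.1) on log2(FPKM + 0.1) and log2(FPKM + 1), other scalings and filters, sex as a covariate, a replicate block, only the males, and leaving out each library. DESeq2 with each library left out was added after seeing the data. Sums and shares were described without a test. The segments, gene lists and tests were chosen with earlier results of these data known, and 2 genes of the B cell list are not reported here. Values per library are given for all constant segments and T cell receptor rows, the 5 highest rows by mean in the heavy and kappa variable groups, and rows averaging 10 or more normalized counts in which 1 library held 50% or more of the total. Positions are those of the table on GRCm38, and all 33 matched GENCODE M21, from which sequences and 150-base windows were read. With 3 mice per group an exact permutation test cannot go below p = 0.1, and the p-values measure the spread between these mice only.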

Additional observations from a re-analysis of the deposited data

Results flagged for a closer look

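By normalized counts, 2 segments were flagged because both males moved one way and the female the other, under the same contrast and by replicate number. For Ighv9-1 the females did not differ in counts, so the flag holds for Ighv5-4 only. The difference between the sexes was not tested. For Ighv9-1, the overexpression female was 1.12 normalized counts above the flox female (5.83 against 4.70). Both females had 5 counts, so this difference came from the size factors alone. The overexpression males were at 0 and 0 against 120.3 and 227 in the flox males. For Ighv5-4, the overexpression female differed from the flox female by -18.1 normalized counts (3.50 against 21.6), whereas the overexpression males were at 67.3 and 206 against 15.8 and 6.15 in the flox males. Each sex rests on 1 female or 2 males per group. Groups of 3 were too small to look for outlying libraries by a rule.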

How the results depend on the processing

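The count of segments called was 0 in edgeR under TMM, library totals, other size factors, both filters, sex as a covariate and males only, and 0 in limma with either pseudocount. It was 7 with DESeq2 (2 higher, 5 lower) and 2 with the replicate block (1 higher, Igkv4-57-1, and 1 lower, Ighv1-19). The replicate numbers gave no pairing, since deviations of same-numbered libraries from their group means correlated at 0.0454, 0.0339 and 0.0486, although each library correlated best with its own number, a hint from the data and not the design. With each library left out in turn, edgeR called 0 to 1 segments (0 to 1 higher, 0 lower) and DESeq2 1 to 6 (0 to 3 higher, 1 to 4 lower), against 4.84% to 8.66% of all rows in these DESeq2 fits, which were chosen after seeing the data. Over all 785 rows, edgeR called 22, DESeq2 73, limma 15 and 10 with a pseudocount of 0.1 and 1, the replicate block 41, males only 1, TMM 18, edgeR with each library left out 4 to 13 and DESeq2 with each library left out 38 to 68.

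Since edgeR called 0 of the 31 segments, no alternative could lose a call. Of 712 fold changes of these segments under the alternatives, 30 passed the threshold and 2 reversed. Leaving out 1 library moved the edgeR fold of 20 of the 31 segments by over 1.5 times. Both reversals were Igkv5-37 without overexpression replicate 2, which held 85.8% of its counts, at -0.24 in edgeR and -0.26 in DESeq2. Its edgeR log2 fold change ran from -0.24 to 5.29 over the fits that left out a library. On the log2 scale of group means, the heavy variable sum was -0.40 and -0.71 with males only, and the heavy locus sum -0.69 and -1.02. The T cell receptor locus was 0.65, and 3.52 once its constant segments were left out, which leaves Trgv2 and Trbv14. With each library left out, the T cell receptor constant sum (0.46) ran from 0.19 to 1.07 and the heavy constant sum (-2.58) from -2.84 to -2.07. Other causes were not tested. Some segments, such as Trgv2, Igkv5-37 and Ighv11-2, averaged under 20 normalized counts over all libraries, and the part of depth in their values was not tested.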

Other observations

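Part of the annotated segments of these loci was in the table. For scale, 785 of the 19204 genes in the authors' adjustment were in the table with an adjusted p below 1. Annotated segments and tested genes are unlike bases, so these shares were not compared by a test. It listed 12 of 113 heavy chain variable genes, 12 of 102 kappa variable genes, 1 of 22 beta variable genes, 1 of 7 gamma variable genes and 2 of 4 gamma constant genes, but 0 of 115 alpha and delta variable genes. The gamma locus was thus represented by 3 rows against 1 for the other T cell receptor loci together.

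Among the other rows, the 5 whose log2(FPKM + 0.1) profile was most like that of the summed constant segments were Gm26869, Mxi1, Dglucy, Gm43323 and Arhgef10l, with Pearson r of 0.954, 0.924, 0.923, 0.909 and 0.895 over 6 libraries. This is a description over libraries that share group and depth, and no B cell gene was among the 5. The sum took in Iglc3 and the gamma constant segments besides the heavy chain ones. Iglc3 was its largest part, at a mean FPKM of 15.1 in flox and 39.5 in overexpression libraries. The heavy chain constant segments summed to a mean FPKM of 8.09 and 1.27. The likeness therefore does not describe the lower heavy chain constant segments. Siglecf, a lectin of eosinophils and the listed gene of 14 myeloid genes, had means of 128 ± 21.1 in flox and 58.7 ± 29.4 (SD, n = 3) in overexpression libraries and was not called by edgeR or DESeq2.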
